A study of Mus musculus with 17 samples.

Results

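Mitochondrially encoded genes were measured in mouse cochlear RNA, and the members were the 16 of 35285 genes whose symbol begins with mt-. They comprised 13 protein-coding genes, both rRNA genes and 1 tRNA gene, mt-Tp. The mouse annotation GENCODE M21 lists 37 genes on the mitochondrial chromosome, and the other 21 were not analysed here. The 17 libraries came from the cochleae of 8-week-old male C57BL/6J mice of wild-type genotype. The control group (n = 3) was injected with saline and heard no noise, the NE group (n = 7) was exposed for 2 h to noise of 8 to 16 kHz at 100 dB, and the brimonidine group (n = 7) had the same noise and 3 intraperitoneal injections of brimonidine, an α2-adrenergic agonist, at 1 mg/kg. An injection of vehicle is not given for the NE group. Cochleae were taken 2 days after the noise. The labels name the source both as cochlear cells and as interstitial cells, and cochlear RNA can hold many cell types, so that fewer cells of a type and less RNA per cell cannot be told apart.

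The mitochondrial genome is a small circle that encodes core subunits of the respiratory chain and of ATP synthase, together with the rRNAs and tRNAs that translate them inside the organelle. Each strand is transcribed as a long precursor that is cut at the tRNAs, and all other mitochondrial proteins, including those that transcribe the genome and process its RNA, come from nuclear genes. The hair cells, the stria vascularis and the spiral ganglion neurons of the cochlea depend heavily on oxidative phosphorylation, and variants in the gene for the small mitochondrial rRNA are a known cause of sensitivity to aminoglycoside ototoxicity. Transcripts of this genome are also among the most abundant in many tissues. Segments of it have been copied into the nuclear chromosomes, where they remain as pseudogenes.

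Values are FPKM, the fragments counted on a gene per kilobase of its length and scaled to the fragments counted in the library, which puts genes of different length on a common scale. Recovered from the FPKM values, the libraries held between 14457733 and 18288854 fragments. Control 2 stood apart from the other libraries: summed FPKM over 8 neutrophil markers was 9686 in it, against 39340 to 64540 in the other 16. Summed over 8 markers of cerebellar and hindbrain neurons, FPKM was 177, 471 and 183 in the 3 control libraries, between 3.69 and 14.1 in the NE libraries and between 3.95 and 53.8 in the brimonidine libraries. All 8 of these neuronal markers were lower in both exposed groups than in the control group (adjusted p under 0.05, limma), and none was at 0 in all libraries. Of all genes tested, 12.0% were called lower in NE and 12.3% in brimonidine. The 8 cochlear epithelium markers summed to between 502 and 1237 FPKM, and the 7 hair cell markers to between 13.5 and 30.6. In both lists the highest sum was in control 2. Only 5 of the epithelial and 4 to 5 of the hair cell markers passed the filter on low values, and none of these was called in any comparison, nor did any of the 8 erythroid or 8 neutrophil markers. Of 9 skeletal muscle markers tested, a tissue rich in mitochondria, 4 were higher in NE and 1 in brimonidine than in control, with sums of 207, 556 and 246 FPKM in the control libraries, 403 to 974 in NE and 320 to 839 with brimonidine. The share of all genes called higher was 2.12% in NE and 3.47% in brimonidine.

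Several members share nearly all of their sequence with pseudogenes in the nucleus. On the nuclear chromosome 1, at chr1:24611535-24616197 (mm10, minus strand), GENCODE M21 annotates 7 pseudogenes side by side that are near-identical copies of mitochondrial genes. Over 90% of the length of mt-Co2, mt-Atp6, mt-Co3, mt-Nd3 and mt-Nd4l lies within such a copy at 99% identity or more, against 63.6% of mt-Nd4 and 31.3% of mt-Co1. No base of mt-Nd1, mt-Nd2, mt-Nd5, mt-Nd6, mt-Cytb, mt-Rnr1, mt-Rnr2 or mt-Tp does. Stretches of 60 bases show how close the copies are, with capitals marking the bases that differ between a gene and its copy, all written 5′ to 3′ on the strand of the gene from the GENCODE M21 transcripts. mt-Co3 (chrMT:8968-9027) and Gm28437 (chr1:24613551-24613610) are shown because no base differs over the 783 bases that align.
mt-Co3: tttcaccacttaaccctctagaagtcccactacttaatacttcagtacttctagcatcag
Gm28437: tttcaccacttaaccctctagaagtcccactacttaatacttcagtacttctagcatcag
mt-Nd3 (chrMT:9459-9518) and Gm28438 (chr1:24613060-24613119) differ at 1 of 345 bases, and that base is in the stretch shown.
mt-Nd3: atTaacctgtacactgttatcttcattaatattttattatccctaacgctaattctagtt
Gm28438: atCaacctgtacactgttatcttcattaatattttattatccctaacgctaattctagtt
mt-Co1 (chrMT:6390-6449) and Gm29216 (chr1:24616129-24616188) differ at 1 of 483 bases.
mt-Co1: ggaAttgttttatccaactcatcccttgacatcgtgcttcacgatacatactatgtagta
Gm29216: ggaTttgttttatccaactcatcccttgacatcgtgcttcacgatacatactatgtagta
For contrast, mt-Cytb (chrMT:14970-15029) and Gm11410, a processed pseudogene on chromosome 4 (chr4:80004814-80004873), differ at 81 of 1142 bases, and the stretch shown holds 8 of these differences.
mt-Cytb: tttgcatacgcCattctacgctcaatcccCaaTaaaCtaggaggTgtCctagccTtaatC
Gm11410: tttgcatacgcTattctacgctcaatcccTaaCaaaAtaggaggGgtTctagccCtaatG
A fragment that lies wholly within the aligned bases of mt-Co3 therefore matches the mitochondrial gene and chromosome 1 equally well. For mt-Cytb, no annotated transcript on the same strand had more than 92.9% identity. Copies without annotation were not searched for. How fragments that match more than 1 place were counted is not given in the sources used here, so the values of the genes with a near-identical copy are uncertain.

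**Figure D1:**
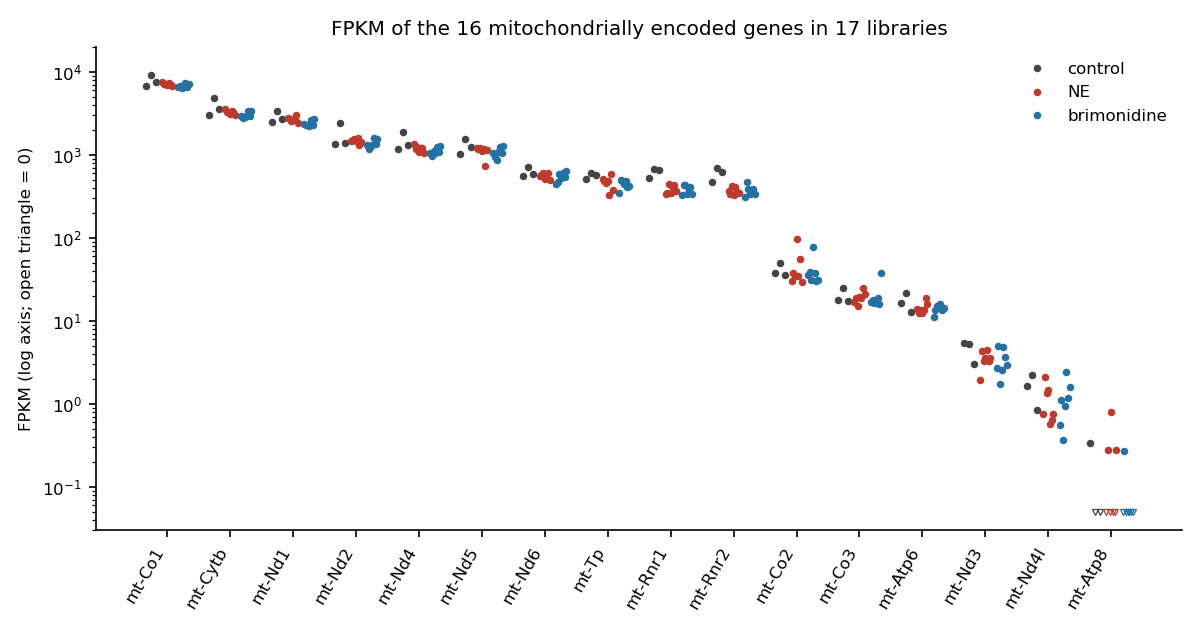
FPKM (log axis) of each of the 16 genes in each of the 17 libraries, coloured by group, with the genes ordered by their mean over all libraries and open triangles for values of 0. The gap between mt-Rnr2 and mt-Co2 separates 10 genes at 315 FPKM or more in every library from 6 genes at 97.1 FPKM or less.

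The 16 genes fell into 2 tiers of level. In the upper tier, the mean over the 17 libraries was 7119 FPKM for mt-Co1, the catalytic core of complex IV, 3275 for mt-Cytb, the cytochrome b of complex III, and 2614 for mt-Nd1, a complex I subunit. Further complex I subunits followed, with 1481 FPKM for mt-Nd2, 1207 for mt-Nd4, 1128 for mt-Nd5 and 566 for mt-Nd6. mt-Tp, the tRNA for proline, had 474, and the rRNAs of the small and the large mitochondrial ribosomal subunit, mt-Rnr1 and mt-Rnr2, had 427 and 411. The libraries were made for mRNA, so tRNA and rRNA values are for the part captured, which was not measured. With a length of 67 bases, mt-Tp is also less comparable with the longer genes. Order among the first 4 was the same in all 17 libraries. mt-Nd4 was above mt-Nd5 in 12 of 17 libraries and mt-Rnr1 above mt-Rnr2 in 13, so these neighbours were not separated beyond the spread of the libraries. The place of mt-Tp differed between groups. In the control group it was below both rRNAs on average, at 568 ± 47.4 FPKM against 622 ± 82.9 for mt-Rnr1 and 598 ± 110 for mt-Rnr2 (SD, n = 3), and below mt-Rnr1 in all 3 libraries. It was above mt-Rnr1 in 13 of the 14 exposed libraries, all except NE 5. The difference between these orders was not tested.

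In the lower tier were mt-Co2 and mt-Co3 of complex IV, with 42.7 and 19.9 FPKM on average, mt-Atp6 of the ATP synthase with 14.8, the complex I subunits mt-Nd3 and mt-Nd4l with 3.63 and 1.21, and mt-Atp8 with 0.116. The 5 genes with over 90% of their length in a near-identical copy never exceeded 97.1 FPKM, and the 5 protein-coding genes with no base in one ranged from 452 to 4838 FPKM. mt-Co1 and mt-Nd4, which lie only in part in a copy, were in the upper tier. This holds for copies of at least 99% identity. At 95% or more, 100% of mt-Co1, 49.1% of mt-Nd2 and 52.3% of mt-Nd5 lie within a copy, and these genes were in the upper tier, so the tiers do not follow the copies at that identity. How far the copies bear on these levels was not tested.

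**Figure D2:**
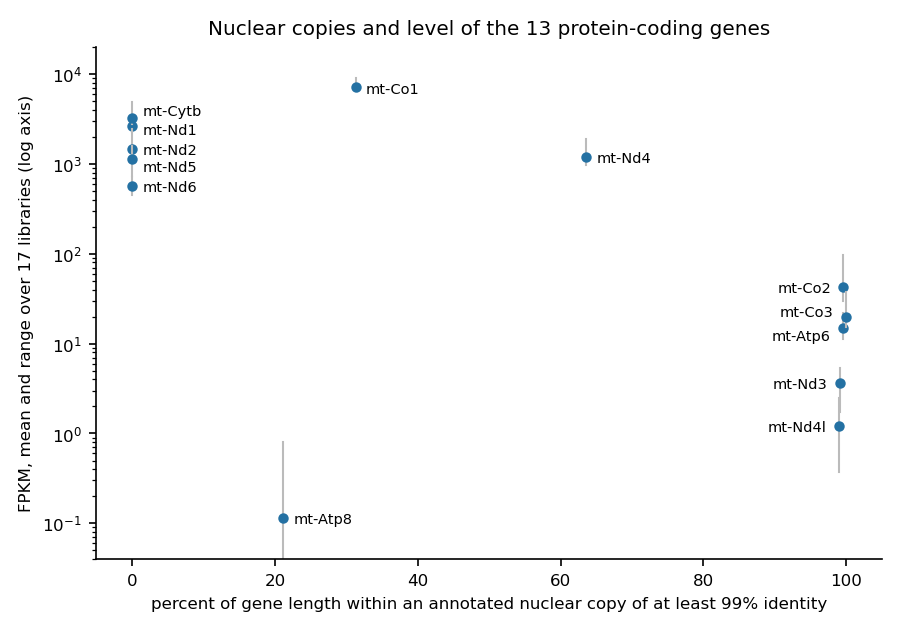
Mean FPKM (points) and range over the 17 libraries (lines, log axis) of the 13 protein-coding genes against the percentage of each gene's length that lies within an annotated nuclear copy of at least 99% identity. The 5 genes near 100% are all below every gene at 0%, and mt-Atp8, at 21.1%, is the lowest of all, with its line drawn to the lower end of the axis because its lowest value is 0.

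mt-Atp8, a short subunit of the ATP synthase (chrMT:7766-7969, plus strand), was the exception among genes without a long annotated copy. It had 0 fragments in 12 of the 17 libraries and between 1 and 3 in the other 5, and a count of 0 allows up to 3. Its level was not distinguishable from 0 at this depth in any group. The gene shares its last 43 bases, in capitals in the sequence shown, with the start of mt-Atp6, so that only the bases in lower case are its own.
mt-Atp8: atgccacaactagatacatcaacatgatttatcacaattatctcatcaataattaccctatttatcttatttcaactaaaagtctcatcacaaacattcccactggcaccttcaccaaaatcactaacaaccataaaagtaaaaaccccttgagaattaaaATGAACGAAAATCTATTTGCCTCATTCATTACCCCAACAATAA
Between the copies Gm10925 (of mt-Atp6) and Gm28661 (of mt-Co2) on chromosome 1 lie 233 bases with no pseudogene annotated, at chr1:24614652-24614884, which is the place of mt-Atp8 by the order of the genes. The sequence of these bases was not read. Other overlaps are shorter, with 14 bases between mt-Nd5 and mt-Nd6, which is encoded on the opposite strand, 7 between mt-Nd4l and mt-Nd4, and 1 between mt-Atp6 and mt-Co3.

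The comparison of the NE with the control group asks what the cochlear transcriptome looks like 2 days after noise. In these libraries, which were made for mRNA, both mitochondrial rRNAs were lower after noise. A change in rRNA level and a change in the part of it captured cannot be told apart. mt-Rnr1 (chrMT:70-1024, plus strand) had 528, 684 and 654 FPKM in the 3 control libraries, against 343 at the lowest, 364 at the median and 448 at the highest in the NE group. mt-Rnr2 (chrMT:1094-2675, plus strand) had 478, 693 and 623 FPKM in the control libraries and 331, 360 and 423 at the lowest, median and highest in the NE group. Every NE library was below every control library for both genes.

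Group means were 622 ± 82.9 FPKM (SD, n = 3) and 388 ± 47.3 (SD, n = 7) for mt-Rnr1, and 598 ± 110 and 368 ± 34.4 for mt-Rnr2. On the log2(FPKM + 1) scale they were 1.60-fold and 1.61-fold lower, a change of -0.68 ± 0.15 (SE) for mt-Rnr1 (adjusted p = 0.0150, limma) and -0.69 ± 0.15 for mt-Rnr2 (adjusted p = 0.0133, limma). Exact two-sided permutation tests gave p = 0.0083 for each, the smallest that 7 libraries against 3 can give. These were the only members called, 2 of 15 tested, while 12.0% of the 15950 genes tested were called lower at this threshold. No member was called lower with a log2 fold change of -1 or less, against 5.49% of all genes. Groups did not overlap for 2 members, with lower values after noise, against 15.0% of all genes. The members called were thus about as large a share of those tested as the genes called were of all genes.

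**Figure D3:**
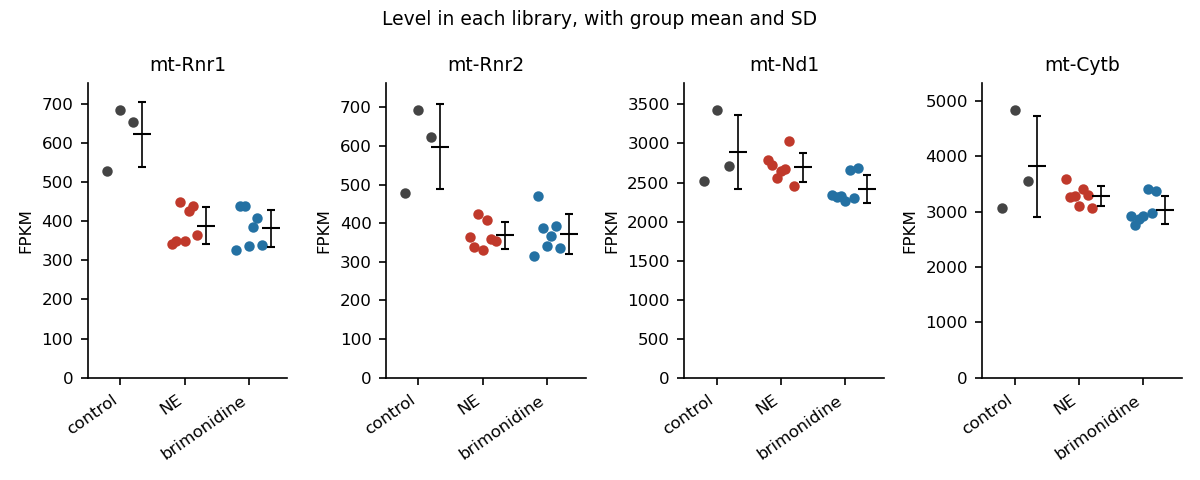
FPKM (axes from 0) of mt-Rnr1, mt-Rnr2, mt-Nd1 and mt-Cytb in each library (points) by group, with the group mean (bar) and SD (whiskers). For both rRNA genes all 14 exposed libraries lie below the 3 control libraries, whereas for mt-Nd1 and mt-Cytb the groups overlap.

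The lower rRNA level did not rest on control 2. Without it the log2 fold change was -0.61 for mt-Rnr1 (adjusted p = 0.0343, limma) and -0.57 for mt-Rnr2 (adjusted p = 0.0294, limma). Without control 3 it was -0.64 for mt-Rnr1, and the adjusted p of 0.0514 no longer passed, while mt-Rnr2 had 0.0473 (limma). Markers of cerebellar and hindbrain neurons moved with the same contrast, 8 of 8 lower after noise with the sums given above. Their part in the rRNA result was not tested. Both rRNA genes were measured with at least 5390 fragments in each library, so counting error was small beside the spread between mice.

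The brimonidine group was compared with the control group to see what noise with treatment left changed, and it shares the 3 control libraries with the comparison before. mt-Rnr1 had 327 FPKM at the lowest, 385 at the median and 438 at the highest in the brimonidine group, and mt-Rnr2 had 315, 368 and 471. All 7 libraries were below the lowest control library for both genes, although brimonidine 2 came close for mt-Rnr2, with 471 against 478 FPKM. Group means were 382 ± 48.2 FPKM for mt-Rnr1 and 373 ± 51.7 for mt-Rnr2 (SD, n = 7), and on the log2(FPKM + 1) scale 1.63-fold and 1.60-fold lower than in control. The log2 fold change was -0.71 ± 0.15 for mt-Rnr1 (SE, adjusted p = 0.0112, limma) and -0.67 ± 0.16 for mt-Rnr2 (SE, adjusted p = 0.0208, limma), and the exact permutation p was again 0.0083 for each.

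As in the NE group, these 2 of the 15 members tested were the only ones called, and 12.3% of 15947 genes were called lower. No member was called lower with a log2 fold change of -1 or less, against 5.56% of all genes. Before any adjustment, exact permutation p-values under 0.05 were also found for mt-Tp (0.0167), mt-Nd1, mt-Nd4 and mt-Cytb (0.0333 each) and mt-Co1 (0.0417), all lower with brimonidine, but limma gave these genes adjusted p of 0.115, 0.462, 0.212, 0.431 and 0.736. No share over all genes was computed for the permutation test. Groups did not overlap for 3 members, mt-Rnr1, mt-Rnr2 and mt-Tp, all lower with brimonidine, against 14.3% of all genes. Without control 3 the adjusted p for mt-Rnr2 was 0.0574 (limma), and with no filter on low values it was 0.0562. With single libraries left out, the log2 fold change of mt-Rnr2 stayed between -0.827 and -0.559. Without control 2 both genes stayed past the threshold, with log2 fold changes of -0.63 for mt-Rnr1 (adjusted p = 0.0210, limma) and -0.56 for mt-Rnr2 (adjusted p = 0.0482, limma).

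**Figure D4:**
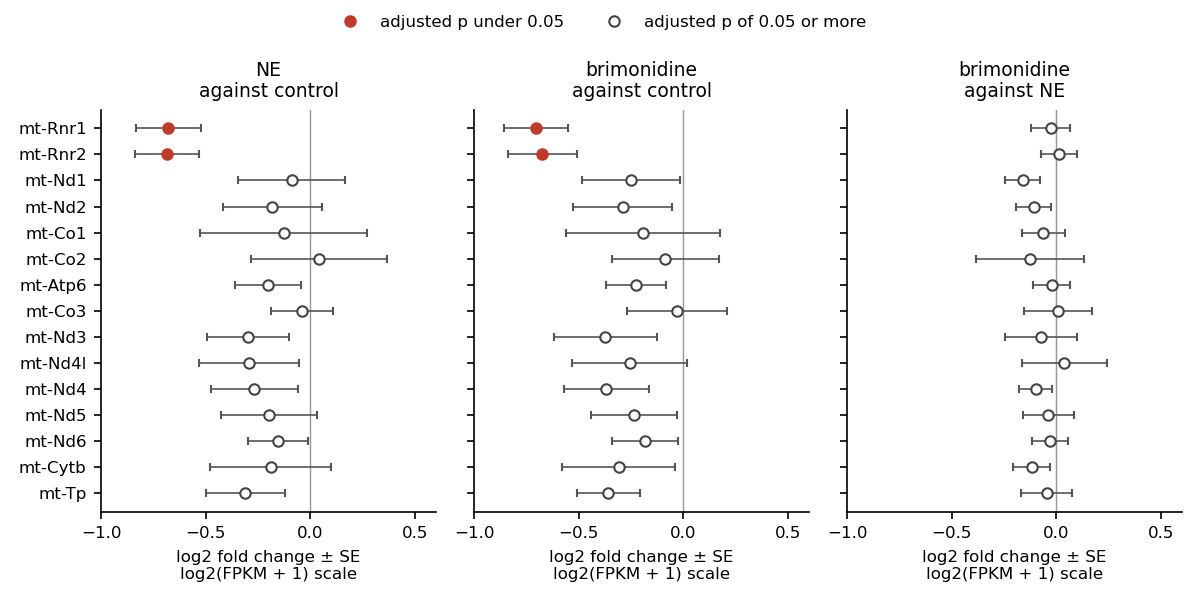
Log2 fold change with SE on the log2(FPKM + 1) scale for the 15 members that passed the filter, in the 3 comparisons, from limma. Filled points passed an adjusted p of 0.05, which mt-Rnr1 and mt-Rnr2 did against control in both exposed groups, and no member did between brimonidine and NE.

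The comparison of brimonidine with NE asks what the treatment changed after the same noise, and no difference in rRNA was detected. The log2 fold change was -0.03 for mt-Rnr1, with an interval of 2 SE either side from -0.21 to 0.16, and 0.01 for mt-Rnr2, from -0.16 to 0.19. None of the 15 members tested was called by limma, nor was any below an unadjusted p of 0.05, while 0.00637% of 15707 genes were called in either direction, a single gene, and 5.77% were below an unadjusted 0.05. A change of the size seen against control lies outside both intervals. The member with the smallest p was mt-Nd1, which had a mean of 2696 ± 184 FPKM in NE and 2414 ± 180 with brimonidine (SD, 7 libraries each), a log2 fold change of -0.16 ± 0.08 (SE). The exact permutation test gave p = 0.0117 for it and 0.0460 for mt-Cytb, the only members of the 16 below 0.05, before any adjustment and with no share over all genes computed. In the fit across all genes, limma gave them adjusted p of 0.870 and 0.901.

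Protein-coding members did not pass the test in any comparison. Complex I is the entry point of electrons from NADH, and 7 of its subunits are mitochondrially encoded. mt-Nd1 had 2522, 3431 and 2718 FPKM in the control libraries, between 2453 and 3034 in the NE group (median 2673) and between 2263 and 2685 in the brimonidine group (median 2327). Control 2 was the highest of all libraries, and the other control libraries lay within the range of the NE group.

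mt-Nd2 had 1368, 2460 and 1390 FPKM in the control libraries, 1323 to 1594 in the NE group (median 1467) and 1188 to 1615 in the brimonidine group (median 1317). For mt-Nd4 the control libraries had 1173, 1899 and 1316 FPKM, the NE group 1065 to 1340 (median 1200) and the brimonidine group 967 to 1272 (median 1092). mt-Nd5 had 1018, 1574 and 1247 FPKM in the control libraries, 737 to 1220 after noise (median 1178) and 862 to 1272 with brimonidine (median 1072). In all of these genes control 2 held the highest value and the groups overlapped.

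The log2 fold change of the abundant complex I genes in NE against control ran from -0.09 for mt-Nd1 to -0.27 for mt-Nd4, with SEs of 0.26 and 0.21. mt-Nd6, the only protein-coding gene on the opposite strand, had 558, 715 and 596 FPKM in the control libraries, 503 to 610 in NE and 452 to 644 with brimonidine, and a log2 fold change of -0.15 ± 0.14 (SE) in NE against control. Whether the counting used strand is not given in the sources used here, so reads of mt-Nd6 and of the transcript opposite it cannot be told apart. The remaining complex I genes rested on few fragments, 11 to 31 per library for mt-Nd3 and 2 to 13 for mt-Nd4l.

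mt-Cytb, a catalytic subunit of complex III, had 3059, 4838 and 3547 FPKM in the control libraries, 3061 to 3588 in the NE group (median 3273) and 2759 to 3408 in the brimonidine group (median 2925). Its group means were 3815 ± 919, 3287 ± 179 and 3031 ± 254 FPKM (SD, n = 3, 7 and 7). Its log2 fold change against control was -0.19 ± 0.29 in NE (SE, adjusted p = 0.674, limma) and -0.31 ± 0.27 with brimonidine (SE, adjusted p = 0.431, limma). The control libraries spread more widely than the groups differed.

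mt-Co1, which with mt-Co2 and mt-Co3 forms the core of complex IV where oxygen is reduced, had 6782, 9150 and 7570 FPKM in the control libraries. The NE group ran from 6789 to 7616 (median 7141) and the brimonidine group from 6429 to 7435 (median 6660). Its log2 fold change was -0.13 ± 0.40 in NE and -0.19 ± 0.37 with brimonidine against control (SE). mt-Co2 had 38.0, 49.5 and 35.7 FPKM in the control libraries, with medians of 35.1 in NE and 35.7 with brimonidine, but 1 library of each exposed group lay far above the rest, NE 4 at 97.1 and brimonidine 4 at 77.8. mt-Co3 had 18.0, 25.0 and 17.2 FPKM in the control libraries and medians of 19.2 and 17.1 in the exposed groups, with brimonidine 7 at 37.9. These 2 genes are among those with a near-identical nuclear copy.

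mt-Atp6, through which protons pass in the ATP synthase, had 16.6, 21.8 and 12.8 FPKM in the control libraries, 12.5 to 18.8 in NE and 11.2 to 15.9 with brimonidine. Over the 12 protein-coding genes tested, 11 had a negative log2 fold change in NE against control and 12 of 12 in brimonidine against control, with medians of -0.19 and -0.24 beside -0.04 and -0.03 over all genes tested. Of all genes tested, 56.1% and 54.2% had a negative log2 fold change. The counts for the protein-coding genes leaned on control 2. Without it the split in NE against control was 8 lower and 4 higher with a median of -0.02, and in brimonidine against control 10 lower and 2 higher with a median of -0.07.

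The tRNA gene mt-Tp (chrMT:15356-15422, minus strand) encodes the tRNA that brings proline to the mitochondrial ribosome. It is the shortest member, and its 67 bases are shown because it is the only tRNA among the members.
mt-Tp: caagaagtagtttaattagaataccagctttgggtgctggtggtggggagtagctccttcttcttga
It had 516, 610 and 577 FPKM in the control libraries, 327 to 592 in the NE group (median 488) and 345 to 499 in the brimonidine group (median 452), on 384 to 625 fragments per library. All 7 brimonidine libraries were below the lowest control library, while NE 6 lay among the controls. The log2 fold change was -0.31 ± 0.19 in NE (SE, adjusted p = 0.269, limma) and -0.36 ± 0.15 with brimonidine (SE, adjusted p = 0.115, limma), and the exact permutation p was 0.10 and 0.0167. The gene did not pass the test, with the difference between brimonidine and control below an unadjusted 0.05. As for mt-Nd6, reads of mt-Tp and of the transcript opposite it cannot be told apart. Nor can reads of the finished tRNA and of a precursor that holds it.

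As a share of total FPKM, the 16 genes made up 4.31%, 7.33% and 5.01% in the control libraries, between 4.33% and 5.15% in the NE group (median 4.74%) and between 4.18% and 4.77% in the brimonidine group (median 4.49%). The uncertain values of genes with a near-identical copy enter these shares and those by class and complex below. The shares are therefore of RNA as counted. Control 2 was far above all other libraries, and the other control libraries were on either side of the NE median. The mean was 5.55 ± 1.58% in the control group, 4.70 ± 0.25% in NE and 4.50 ± 0.21% with brimonidine (SD), and 4.66% in the control group without control 2. Counted as fragments rather than FPKM, which gives long genes more weight, the share was 2.29%, 3.32% and 2.59% in the control libraries, 2.26% to 2.54% in NE and 2.13% to 2.50% with brimonidine.

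**Figure D5:**
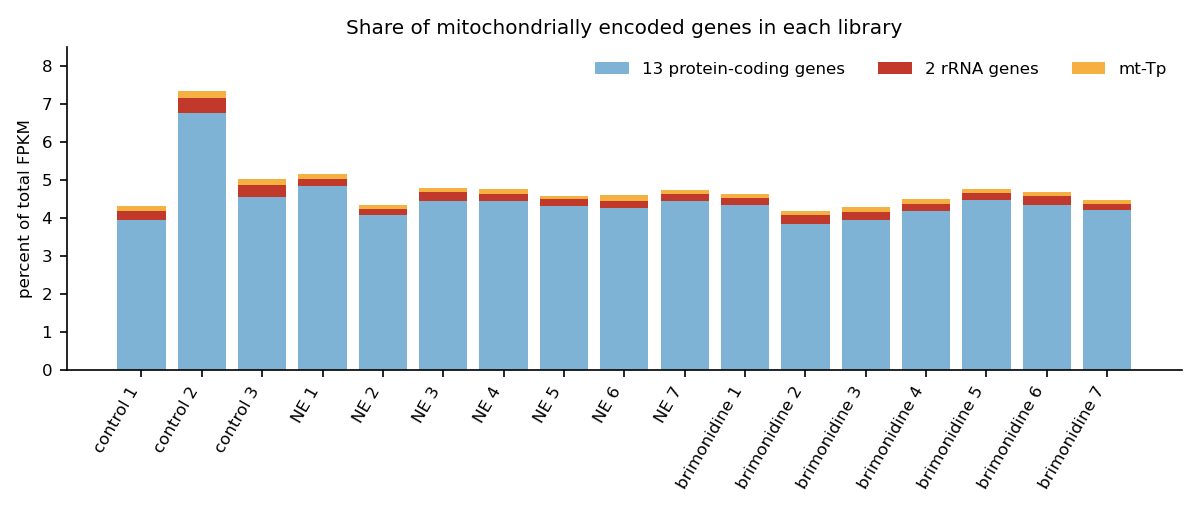
Percentage of the total FPKM of each library (axis from 0) taken by the 13 protein-coding genes, the 2 rRNA genes and mt-Tp. Control 2 stands at 7.33% and the other 16 libraries between 4.18% and 5.15%, with the rRNA band thicker in the control libraries than in the exposed ones.

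Split by class, protein-coding genes took 3.94%, 6.77% and 4.55% of the FPKM in the control libraries, 4.06% to 4.84% in NE and 3.84% to 4.46% with brimonidine. The rRNA genes took 0.240%, 0.386% and 0.315% in the control libraries, 0.158% to 0.220% in NE and 0.157% to 0.224% with brimonidine, so that all 14 exposed libraries were below the control libraries. For mt-Tp the shares were 0.123%, 0.171% and 0.142%, then 0.078% to 0.146% and 0.0945% to 0.125%. These shares are sums over the members and were not tested.

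Set against the protein-coding genes of the same library, which takes the library total out of the measure, rRNA FPKM was 6.08%, 5.70% and 6.92% of protein-coding FPKM in the control libraries. It was 3.80% to 4.94% in the NE group (median 4.34%) and 3.73% to 5.85% in the brimonidine group (median 4.27%). All NE libraries were below the control libraries, whereas brimonidine 2, at 5.85%, was above control 2. The rRNAs kept to each other, with mt-Rnr2 at 0.90 to 1.01 times the FPKM of mt-Rnr1 in control, 0.82 to 1.06 in NE and 0.89 to 1.08 with brimonidine.

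Within the protein-coding class, the largest shares differed little between the group means. mt-Co1 took 39.9 ± 1.81% of protein-coding FPKM in the control group, 40.6 ± 0.30% in NE and 41.5 ± 1.23% with brimonidine (SD). mt-Cytb took 19.2 ± 0.77%, 18.8 ± 0.36% and 18.4 ± 0.30%, and the complex I genes together 40.4 ± 1.19%, 40.2 ± 0.39% and 39.7 ± 0.97%. Single libraries differed more. In NE 6, mt-Nd5 took 4.28%, against 6.53% to 6.88% in the other NE libraries, while mt-Nd1 took 17.6% there against 14.5% to 15.7%. mt-Nd5 took 5.56% in brimonidine 3, and mt-Nd2 took 10.2% in control 2, against 7.53% to 8.84% in the other 16 libraries.

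Because the control libraries stand apart, correlations of log2(FPKM + 1) are given over the 14 exposed libraries, as a description of points that share library depth. Pairs among the 7 abundant protein-coding genes had a median r of 0.72, from 0.04 for mt-Nd1 with mt-Nd5 to 0.94 for mt-Nd4 with mt-Cytb. mt-Rnr1 and mt-Rnr2 had an r of 0.83 with each other. With mt-Co1 they had -0.09 and 0.04, and with mt-Cytb -0.11 and -0.17. Over the 35 pairs of mt-Co2, mt-Co3, mt-Atp6, mt-Nd3 or mt-Nd4l with an abundant protein-coding gene, the median r was 0.21, from -0.43 for mt-Atp6 with mt-Nd5 to 0.58 for mt-Nd4l with mt-Nd5. By gene, the median over its 7 pairs was -0.18 for mt-Co2, 0.13 for mt-Nd3, 0.17 for mt-Atp6, 0.30 for mt-Co3 and 0.32 for mt-Nd4l. The range of these pairs overlapped that of the pairs among the abundant genes.

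Among 16401 nuclear genes, the 5 whose log2(FPKM + 1) followed the mean of the 13 protein-coding members most closely over the 17 libraries were Gm10925 (r = 0.89), Msx3 (0.88), Hdac6 (0.87), Dnajb5 (0.86) and Armcx4 (0.86). Gm10925 is the nuclear copy of mt-Atp6. Over the 14 exposed libraries alone, r was 0.77, 0.75, 0.73, 0.80 and 0.71 in the same order.

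Nuclear genes that serve the mitochondrial genome were read from lists by function. Of 18 genes for mitochondrial DNA maintenance and transcription, all tested, 1 was higher and none lower in NE against control, beside 2.12% of all genes called higher and 12.0% called lower. It was Rnaseh1, which removes RNA paired to DNA, with 4.97 ± 0.31 FPKM in the control group and 6.10 ± 0.39 in NE (SD, log2 fold change 0.25 ± 0.07, SE, adjusted p = 0.0469, limma). In brimonidine against control Rnaseh1 was again the only gene called, at 6.14 ± 0.39 FPKM (SD, adjusted p = 0.0331, limma), beside 3.47% of all genes called higher and 12.3% called lower. Polrmt, the RNA polymerase that transcribes the mitochondrial genome, had 5.11 to 9.11 FPKM in the control libraries, 3.98 to 4.93 in NE and 4.64 to 6.07 with brimonidine, and its log2 fold change of -0.40 in NE against control did not pass (adjusted p = 0.0721, limma). Tfam, which packages mitochondrial DNA and activates its transcription, had 7.80 ± 0.87, 7.23 ± 0.36 and 7.36 ± 0.55 FPKM and did not pass (adjusted p = 0.421 for NE and 0.553 for brimonidine against control, limma).

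Of 22 genes for mitochondrial RNA processing and decay, 20 were tested, and Nsun3, which modifies the mitochondrial tRNA for methionine, was the only one called, higher in NE than in control at 4.30 ± 0.17 against 3.27 ± 0.60 FPKM (SD, adjusted p = 0.0409, limma), beside 2.12% of all genes called higher and 12.0% called lower. None was called in brimonidine against control, beside 3.47% and 12.3% of all genes. Of 8 regulators of mitochondrial biogenesis, Ppargc1b, a transcriptional coactivator, was the only one called lower in both exposed groups, beside 12.0% and 12.3% of all genes. It had 1.72 to 4.80 FPKM in the control libraries, 0.43 to 1.22 in NE and 0.74 to 1.52 with brimonidine (log2 fold change -1.02, adjusted p = 0.0105, and -0.86, adjusted p = 0.0216, limma). Ppargc1a, the related coactivator, had 2.27 to 6.45 FPKM in the control libraries, 1.15 to 2.40 in NE and 1.33 to 2.15 with brimonidine and did not pass (adjusted p = 0.099 and 0.0896, limma). Yy1, a transcription factor with many targets, was the only one of the 8 called higher, beside 3.47% of all genes, in brimonidine against control, at 20.9 ± 0.76 against 18.1 ± 0.70 FPKM (SD, adjusted p = 0.0482, limma).

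Mitochondrial aminoacyl-tRNA synthetases charge the tRNAs that the mitochondrial genome encodes. Of the 17, 16 were tested in NE against control and 17 in brimonidine against control, and Lars2, the synthetase for leucine, was the only one called, and it was lower, beside 12.0% and 12.3% of all genes called lower. Lars2 had between 163 and 244 FPKM in the control libraries, 15.1 to 91.0 in NE (median 68.0) and 23.0 to 137 with brimonidine (median 52.4). The highest exposed library was below the lowest control library. Its log2 fold change was -2.12 ± 0.55 in NE (SE, adjusted p = 0.0281, limma) and -1.90 ± 0.52 with brimonidine (SE, adjusted p = 0.0342, limma). The medians over the 4 lists lay between -0.02 and 0.02 in NE against control, beside -0.04 over all genes tested, and between -0.04 for the synthetases and 0.09 for the regulators of biogenesis in brimonidine against control, beside -0.03. No gene of the 4 lists was called between brimonidine and NE. Among these nuclear genes, Ppargc1b in NE passed without control 1, 2 or 3 (adjusted p of 0.0065, 0.0268 and 0.0224, limma). Other calls were lost in some fits with 2 control libraries left: without control 2, Nsun3 (adjusted p = 0.12), Yy1 (0.10), Ppargc1b in brimonidine (0.0522) and Lars2 (0.0989 in NE and 0.0933 in brimonidine) no longer passed. Lars2 also missed the threshold without control 1 (0.0556 and 0.0600) or control 3 (0.0539 and 0.0555), and Rnaseh1 did without control 1 (0.0857 and 0.0594) or control 3 (0.0936 and 0.0702, all limma). Yy1 missed it without control 3 as well (0.0785). Its log2 fold change was 0.207 without control 3 and 0.169 without control 2, against 0.199 with all controls. With single control libraries left out, the log2 fold changes of Lars2 stayed between -2.27 and -1.98 in NE and between -2.05 and -1.76 with brimonidine, and those of Rnaseh1 between 0.21 and 0.30 over both groups, while without control 2 Nsun3 was 0.20 in NE and Ppargc1b was -0.69 in NE and -0.53 with brimonidine.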

How the data were processed

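Cochlear RNA was isolated by the authors with TRIzol and turned into TruSeq Stranded mRNA libraries, which were read on an Illumina NovaSeq. The submitters' processing notes name Trimmomatic, HISAT2, Cufflinks and HTSeq, without versions or roles, and the build mm10. The authors deposited FPKM values, with no further scaling between libraries, for 35285 genes. Annotation, strand setting and the handling of fragments with several matches are not given in the sources used here. The study's test, DESeq2, needs counts and was not applied to FPKM.

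Groups came from the sample labels, and each library is from 1 mouse. Members were the genes whose symbol begins with mt-, and the positions of all 16 matched GENCODE M21. Whole fragments were recovered from the FPKM values, within 1.7e-05 of a whole number for the members, and gave the depth. A gene entered a comparison if 3 or more of its libraries had 1 FPKM or more. Testing used lmFit and eBayes with trend from limma 3.58.1 (R 4.3.3) on log2(FPKM + 1), a scale that understates changes of low genes. Each model held the 2 groups compared, and p-values were adjusted by Benjamini-Hochberg over all genes tested. mt-Atp8 did not pass the filter. Calls needed an adjusted p under 0.05, with or without an absolute log2 fold change of 1. Exact two-sided permutation tests compared group means of log2(FPKM + 1) over all assignments of the libraries, for the members and the nuclear copies only. Tests and tables were made with Python 3.11.15, numpy 2.4.6 and pandas 2.3.3, figures with matplotlib 3.10.9. On simulated data with 200 genes changed by a log2 fold change of 2, the fit called 194 with 15 false calls among 15950 genes in the design of NE against control. Both groups were simulated with the same spread, and smaller changes such as those of the members were not simulated.

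Nuclear copies were found by blastn 2.17.0 of the members against all GENCODE M21 transcripts, on the same strand. Named genes were all members, at most 3 genes per direction past the threshold in each of 4 lists of nuclear genes, with Tfam, Polrmt and Ppargc1a in any case, the nuclear copies, and the 5 nuclear genes most correlated with the protein-coding members. The members and lists were chosen with earlier results of these data known. Replicate numbers were shared between groups, but same-numbered libraries did not deviate together (correlations of -0.23 to 0.08), so no pairing was used. Alternatives covered the pseudocount, the filter, scaling, weights, the model and each library left out, and voom on recovered fragments and the nuclear genes without each control library were added after seeing the data.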

Additional observations from a re-analysis of the deposited data

Results flagged for a closer look

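Single libraries stood apart in 9 of the 56 sets of values examined, each being 1 gene in 1 group of 7 libraries, by a gap to the nearest library that was large beside the range of the group. Chance alone does this in about 1 in 20 sets of independent, normally distributed values. The mt-Atp8 sets hold mostly values of 0, and NE 6 recurs among the sets, so 9 of 56 cannot be set against that rate. mt-Co2 was 97.1 FPKM in NE 4, with 29.6 to 55.3 in the other NE libraries, and 77.8 FPKM in brimonidine 4, with 30.3 to 38.4 in the others. mt-Co3 was 37.9 FPKM in brimonidine 7, with 16.3 to 19.0 in the others. mt-Nd5 was 737 FPKM in NE 6, the only low value of the set, with 1111 to 1220 in the others. mt-Atp8 was 0.804 FPKM in NE 4 and 0.273 in brimonidine 2, which are 3 fragments and 1. The nuclear copies also appeared, with Gm29216 at 17.9 FPKM and Gm28661 at 31.1 in NE 6 and Gm28661 at 25.4 in brimonidine 5.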

How the results depend on the processing

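Leaving out single libraries gave 1 to 2 members called against control in both exposed groups, with 1 without control 3 and 2 without control 1 or control 2. With the replicate number as a replicate block, 0 members were called in NE and 0 in brimonidine against control (adjusted p = 0.412 for mt-Rnr1 and 0.439 for mt-Rnr2 in NE, 0.440 and 0.448 in brimonidine, limma), although the log2 fold changes stayed at -0.71, -0.66, -0.64 and -0.61. That fit called 0 of 15950 genes in NE against control, where 504 higher and 1566 lower genes had an unadjusted p under 0.05, and in brimonidine against control it called 2 higher and 234 lower of 15947. Among the nuclear genes named, Lars2 kept its call with the block in brimonidine (-2.45, adjusted p = 0.0308, limma) but not in NE (-1.39, adjusted p = 0.205, limma), and Rnaseh1, Nsun3, Ppargc1b and Yy1 lost theirs (adjusted p of 0.248 to 0.583, limma). Log2 fold changes with the block were 0.279 and 0.302 for Rnaseh1 and -1.02 and -0.958 for Ppargc1b in NE and brimonidine. They were 0.286 for Nsun3 in NE and 0.189 for Yy1 in brimonidine. The replicate numbers do not pair the mice. With no filter on low values, 1 member was called in brimonidine against control. Over the settings, the adjusted p of mt-Rnr1 ran from 0.000255 to 0.412 in NE and from 0.000136 to 0.440 in brimonidine against control. mt-Tp passed in NE against control with array weights (0.0446) and in brimonidine against control with array weights or quantile normalization (lowest 0.00986).

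Quantile normalization moved the median log2 fold change of all genes from -0.04 to 0.06 in NE against control, where mt-Rnr1 then had -0.93 and mt-Rnr2 -0.92, and the genes called from 1909 lower and 338 higher to 1507 and 956. Signs of small differences turned, and the causes were not tested. In NE against control this held with array weights for mt-Nd2 (0.0925), mt-Nd4l (0.126), mt-Nd3 (0.0711), mt-Co3 (0.0945) and mt-Atp6 (0.0623), with median-ratio scaling for mt-Co3 (0.0315), with quantile normalization for mt-Co2 (-0.0688) and with the replicate block for mt-Co2 (-0.246). In brimonidine against control it held with array weights for mt-Nd4l (0.138), mt-Co3 (0.147), mt-Atp6 (0.0717) and mt-Co2 (0.167) and with median-ratio scaling for mt-Co3 (0.0217). In brimonidine against NE it held with quantile normalization for mt-Nd2 (0.0059), mt-Tp (0.0483), mt-Nd6 (0.0616) and mt-Rnr1 (0.0702), with median-ratio scaling for mt-Rnr2 (-0.00627) and mt-Co3 (-0.0098), and with array weights for mt-Rnr2 (-0.0341) and mt-Atp6 (0.00744).

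Leaving out single libraries moved log2 fold changes across 0 within these ranges. In NE against control they were -0.327 to 0.0965 for mt-Nd2, -0.182 to 0.0399 for mt-Nd1, -0.136 to 0.121 for mt-Co3 and -0.159 to 0.178 for mt-Co2. In brimonidine against control they were -0.188 to 0.13 for mt-Co3 and -0.254 to 0.0524 for mt-Co2. In brimonidine against NE they were -0.0535 to 0.0384 for mt-Atp6, -0.294 to 0.0733 for mt-Co2, -0.148 to 0.07 for mt-Co3, -0.172 to 0.0282 for mt-Nd3, -0.0831 to 0.14 for mt-Nd4l, -0.135 to 0.0124 for mt-Nd5, -0.0705 to 0.0145 for mt-Nd6, -0.0618 to 0.00859 for mt-Rnr1, -0.0455 to 0.0509 for mt-Rnr2 and -0.126 to 0.0158 for mt-Tp. As shares of fragments in control, NE and brimonidine, the members took 2.73%, 2.39% and 2.26%, protein-coding genes 2.58%, 2.29% and 2.16%, rRNA 0.154%, 0.0954% and 0.0954%, and mt-Tp 0.0038%, 0.0031% and 0.00298%. Tests with DESeq2 or edgeR were not run, and voom on recovered fragments, chosen after seeing the data, called 2 members against control in both exposed groups. The depth limits mt-Atp8, mt-Nd4l and mt-Nd3, with 31 fragments or fewer in every library.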

Other observations

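The nuclear copies were measured beside the members and none of the 7 passed the test in any comparison. Their group means ran from 1.33 to 56.5 FPKM. The copy of mt-Atp6, Gm10925, had 56.5 ± 13.7 FPKM in the control group, 49.9 ± 6.35 in NE and 45.9 ± 4.78 with brimonidine (SD, n = 3, 7 and 7), above the 17.0, 14.5 and 14.2 of mt-Atp6 itself. Gm28438, the copy of mt-Nd3, reached 25.1 FPKM in control 3, 19.3 in NE 1 and 33.1 in NE 6, and lay between 1.57 and 6.28 in the other 14 libraries. mt-Nd3 was 3.04, 1.97 and 3.28 FPKM in those 3 libraries, within the range of the others. The smallest adjusted p in limma was 0.0778, for Gm28438 in brimonidine against control, where it was 2.37-fold lower on the log2(FPKM + 1) scale. Gm28439, the copy of part of mt-Nd4, was 1.32-fold lower in NE than in control on that scale (adjusted p = 0.0825, limma), and Gm29216, the copy of part of mt-Co1, 1.22-fold lower in brimonidine than in control (adjusted p = 0.0892, limma). Gm28661, the copy of mt-Co2, was 1.16-fold lower in brimonidine than in NE (adjusted p = 0.747, limma), with an unadjusted p of 0.015.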
